A study of Homo sapiens with 6 samples.

Results

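TMEM33 and 9 genes whose proteins shape the membrane of the endoplasmic reticulum (ER) were followed in SH-SY5Y cells given SGC707. The 10 genes, taken by symbol from the 19610 rows of the count table, were TMEM33, RTN1, RTN3, RTN4, REEP5, ARL6IP1, ATL1, ATL2, ATL3 and CKAP4. TMEM33 was chosen for its fall with SGC707 in these same libraries, so its values are a description without a test. The other 9 were listed for what their proteins do. All 10 were present and passed the filter on low counts, as did 12196 genes in all.

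SH-SY5Y is an established neuroblastoma cell line of human origin whose cells resemble adrenergic neurons, here of wild-type (WT) genotype. RNA-seq libraries were made from cells given the solvent DMSO (3 libraries) and from cells given SGC707 (3 libraries), which inhibits PRMT3, a protein arginine methyltransferase. Each group has replicates A to C, and the sources used here state neither dose nor duration. They also do not say whether the replicates were grown as separate cultures, so a p-value covers the spread of these 6 libraries, which may be technical.

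The ER is one continuous membrane that forms flat sheets and a network of narrow tubules joined at junctions. Reticulons, REEP5 and ARL6IP1 insert hairpin-like segments into the membrane and curve it into tubules, atlastins are GTPases that fuse tubules into junctions, and CKAP4 (also called CLIMP-63) holds the faces of sheets apart. TMEM33 is a multi-pass ER membrane protein that binds reticulons and, in earlier work by others, reduced their tubule-forming activity and modulated signalling of the ER stress sensor PERK. In neurons the tubular network runs along the axon, and ATL1, ARL6IP1 and several related genes are known from hereditary spastic paraplegia.

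Sequences of RefSeq promoter windows, from 250 bases before to 50 bases after an annotated start (GRCh38.p14), were found for all 10 genes, 23 windows in total. The windows of TMEM33 and ATL3 are shown because these were the 2 genes of the 10 in which every SGC707 library lay on one side of every DMSO library, in opposite directions, as did 20.6% of all tested genes. Capitals mark matches on either strand to any of 4 motifs, namely the CCAAT box, the motif CCACG, the GC box GGGCGG and the motif TGACG, and the window of TMEM33 is chr4:41935179-41935478 on the plus strand and that of ATL3 chr11:63671327-63671626 on the minus strand.
TMEM33: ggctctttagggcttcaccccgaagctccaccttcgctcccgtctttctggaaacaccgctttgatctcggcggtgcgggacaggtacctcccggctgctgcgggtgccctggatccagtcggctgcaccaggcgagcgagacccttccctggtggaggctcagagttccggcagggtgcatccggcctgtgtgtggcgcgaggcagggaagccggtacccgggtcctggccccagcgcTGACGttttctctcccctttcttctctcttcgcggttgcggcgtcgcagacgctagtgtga
ATL3: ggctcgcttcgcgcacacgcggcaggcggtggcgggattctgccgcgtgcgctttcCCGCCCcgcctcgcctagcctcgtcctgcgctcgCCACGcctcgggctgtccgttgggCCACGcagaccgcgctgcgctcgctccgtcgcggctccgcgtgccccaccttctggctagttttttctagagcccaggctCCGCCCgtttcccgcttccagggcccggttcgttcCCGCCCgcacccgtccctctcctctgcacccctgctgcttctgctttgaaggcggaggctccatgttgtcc
Counted from 1 at the 5′ end of the window, TMEM33 held TGACG at bases 240 to 244 and no match to the other 3 motifs. ATL3 held CCACG at bases 91 to 95 and 115 to 119, and GGGCGG on the opposite strand at bases 57 to 62, 195 to 200 and 230 to 235. Among 35116 windows of the same length, TGACG was found in 24.6%, CCACG in 38.1%, GGGCGG in 45.0% and CCAAT in 34.6%. The ER stress element, which is made of CCAAT, then 9 bases of any kind, then CCACG, is known from promoters of ER chaperones. It was found in 0 of the 23 windows and in 0.0769% of all windows. Such matches describe letters only.

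The libraries differed in depth and composition. Total counts were 11658728 to 15437602 per library. Mitochondrially encoded genes took 46.7% to 60.7% of counts with DMSO and 24.3% to 37.7% with SGC707, which left 6066305 to 6327895 counts on nuclear genes with DMSO and 7559322 to 8999358 with SGC707. Levels are therefore given as CPM after TMM scaling (normalised CPM), which sets the libraries to a common scale under the assumption that most genes do not differ. Scaled by library totals alone, the median log2 fold change of all genes was 0.69 in place of 0.02. SGC707 C stood apart by a trend with GC content, with a Spearman correlation across 12098 genes of -0.76 between a gene's GC content and its deviation from the mean of the 6 libraries, against -0.13 to 0.53 in the other 5. Of the adrenergic markers, HAND2 averaged 807.8 ± 281.5 normalised CPM in DMSO libraries and 671.3 ± 109.2 in SGC707 libraries (SD, n = 3), and DBH 141.3 ± 18.4 and 107.1 ± 38.0. With 1 library left out the log2 fold change of HAND2 ran from -0.51 to -0.0016, the latter without DMSO B. That of DBH ran from -0.57 to -0.14, the latter without SGC707 C. GATA3, named because of its values, averaged 818.2 ± 166.9 normalised CPM with DMSO and 371.3 ± 7.25 with SGC707 (log2 fold change -1.14). Every SGC707 library lay below every DMSO library, as in 9.78% of all tested genes. It did not pass in edgeR on all libraries (adjusted p = 0.142). It passed with DESeq2 (adjusted p = 2.21e-05) and after a correction for GC content and transcript length (edgeR adjusted p = 0.0487). Without SGC707 C it passed (edgeR adjusted p = 0.0277), as did 9.26% of all genes. It also passed after the correction with SGC707 C left out (edgeR adjusted p = 0.0358), as did 7.55% of all genes. GATA3 passed in no other alternative, and as it was chosen for its values these are a description. Of the 8 tested adrenergic markers 7 had negative log2 fold changes (median -0.34), and 6 were positive with library totals alone. TH, which encodes tyrosine hydroxylase, had 0 counts in all 6 libraries. By counting error alone this leaves room for a level of up to 0.194 to 0.257 CPM by library totals, without TMM scaling. The 9 adrenergic markers summed to 2578 to 3483 normalised CPM with DMSO and 1723 to 2415 with SGC707, and the part of this shift in the results was not tested. The 7 Schwann and glial markers summed to 1.40 to 3.13 normalised CPM over all libraries, with SOX10 and GFAP at 0. The 10 substrate-adherent and fibroblast markers summed to 260.9 to 304.1 with DMSO and 263.7 to 291.3 with SGC707. Of these 10, 6 had positive and 4 negative log2 fold changes. In edgeR 2 of the 10, both lower, had an unadjusted p under 0.05, where 7.13% of all genes were lower at that level.

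TMEM33 transcripts (ENSG00000109133, GRCh38 chromosome 4, 41935120 to 41960572, plus strand) were 4.86-fold less abundant with SGC707. Its raw counts were 1280, 1158 and 1593 in the DMSO libraries A to C and 465, 443 and 281 in the SGC707 libraries A to C. In normalised CPM these were 122.1, 113.2 and 143.4 with DMSO and 28.1, 27.9 and 21.9 with SGC707. The groups were far apart, as the lowest DMSO library stood 4.03 times as high as the highest SGC707 library. The means were 126.2 ± 15.5 and 26.0 ± 3.51 normalised CPM (SD, n = 3), or a fitted log2 fold change of -2.28.

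**Figure D1:**
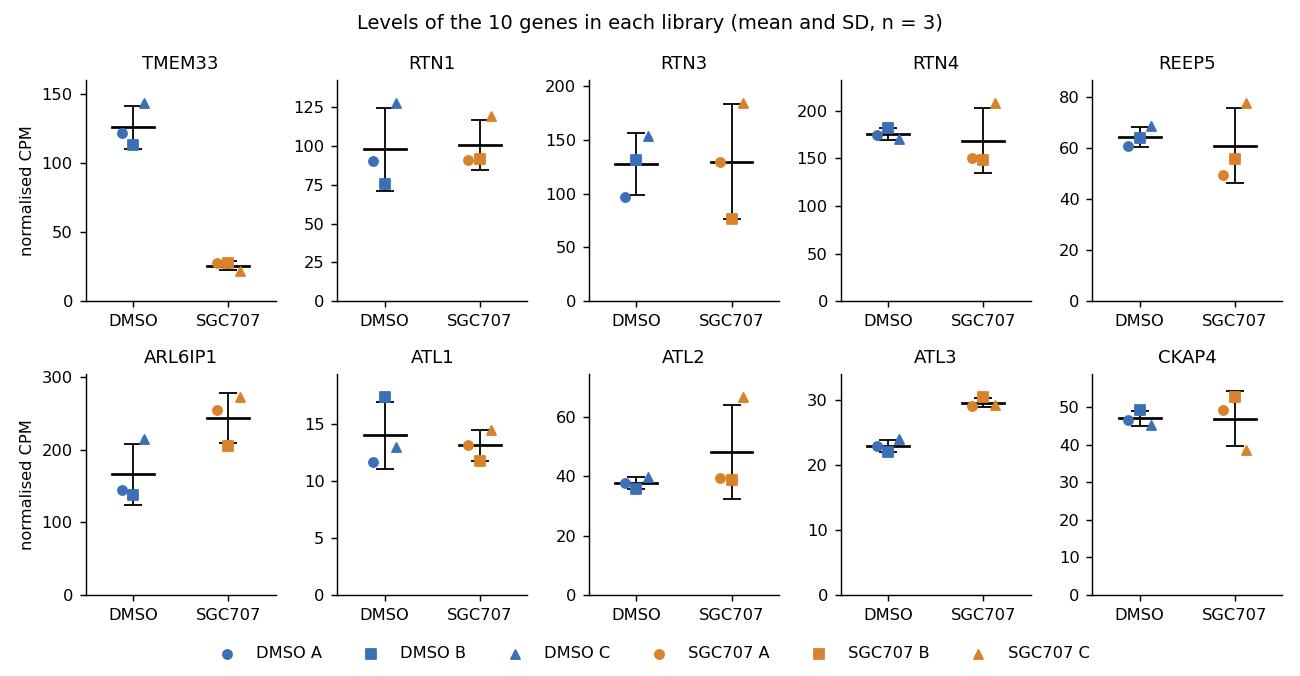
Level of each of the 10 genes in each library, in normalised CPM on linear axes that start at 0. Points are libraries (circle A, square B, triangle C), horizontal bars are group means and whiskers the SD (n = 3). TMEM33 stands at 113.2 to 143.4 with DMSO and 21.9 to 28.1 with SGC707, and the ATL3 libraries are also separated, at 22.1 to 23.9 and 29.1 to 30.4.

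The raw counts of TMEM33 were lower with SGC707 although more counts fell on nuclear genes in that group. All 9 other genes had a higher mean raw count with SGC707, but raw counts are not scaled for depth. By library totals alone the median log2 fold change of all tested genes was 0.69, so the 9 are to be read beside that shift. As a share of nuclear counts, TMEM33 had 217.2 CPM of nuclear counts in the DMSO group and 46.6 in the SGC707 group, a 4.66-fold difference close to the one after TMM scaling. Of all tested genes, 9.78% had every SGC707 library below every DMSO library, as TMEM33 did. By log2 fold change TMEM33 ranked 6 from the lowest of 12196 tested genes, a place that follows from how it was chosen.

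**Figure D2:**
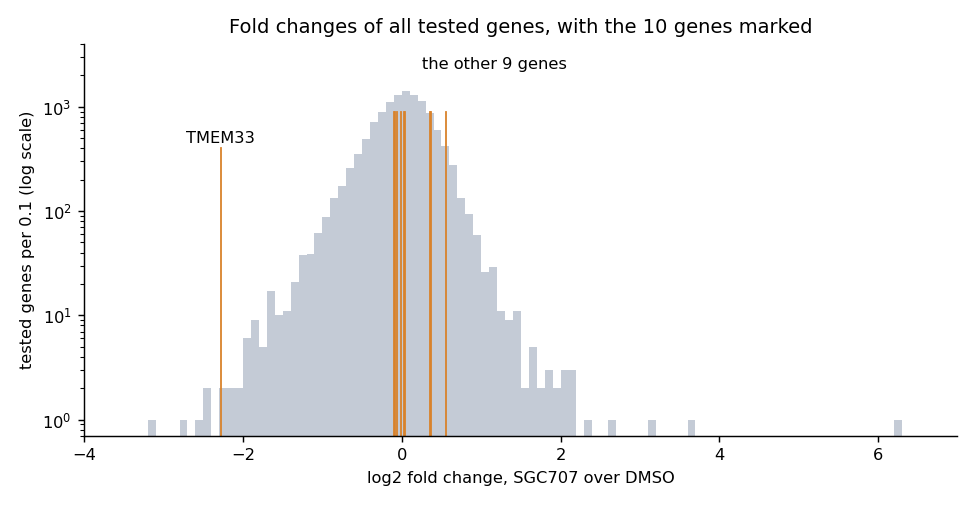
Log2 fold change (SGC707 over DMSO) of all 12196 tested genes in bins of 0.1, with the number of genes on a log axis. Vertical lines mark the 10 genes. TMEM33 stands at -2.28 in the far left tail, and the other 9 lie between -0.09 and 0.55.

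None of the other 9 genes passed the test over all genes in either direction (edgeR quasi-likelihood test, adjusted p from 0.330 to 0.995), where 0.0246% of all tested genes did. Their log2 fold changes ran from -0.09 to 0.55, with 5 positive and 4 negative and a median of 0.03, against a median of 0.02 over all tested genes. With 1 library left out this median ranged from -0.10 without SGC707 C to 0.19 without DMSO C, and it was also negative without DMSO A (-0.02). The unadjusted p was under 0.05 for 2 higher genes, ARL6IP1 and ATL3, and 0 lower ones, where 5.62% of all genes were higher and 7.13% lower. No member was higher at this level without DMSO A, DMSO B or SGC707 A, and 1 was without DMSO C or SGC707 B. Without SGC707 C 1 was higher and 2 lower. Over all genes in either direction, 769 of 12410 were at this level without DMSO A and 703 of 12425 without DMSO B. The counts were 1708 of 12411 without DMSO C, 1288 of 12285 without SGC707 A and 967 of 12289 without SGC707 B. Without SGC707 C 3723 of 12392 genes were at this level, so the members there are to be read beside that share. In DESeq2 1 of the 9 was at this level, as were 10.1% of all genes, and 0 passed after adjustment. The 95% intervals of the 9 fold changes reached no lower than -0.70 (RTN3) and no higher than 1.03 (ARL6IP1). The value of TMEM33 lay outside each of these intervals, but TMEM33 was chosen for its fall, so this is a description and not a test. Scaled by library totals alone, 9 of 9 values were positive with a median of 0.65, below the 0.69 median of all genes, and 4 passed as higher, as did 21.1% of all genes.

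**Figure D3:**
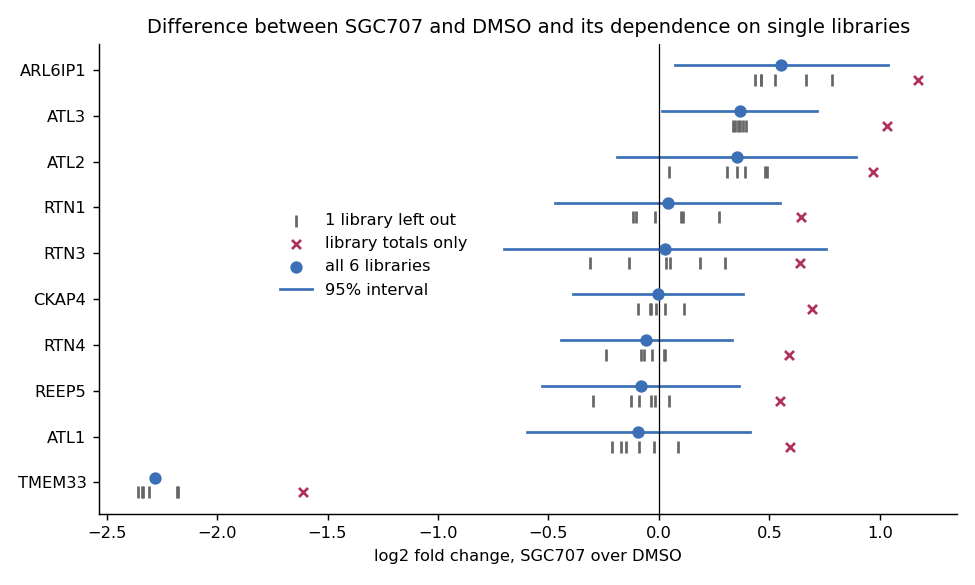
Log2 fold change of the 10 genes (points) with 95% intervals from edgeR. Ticks below each point are the values with 1 library left out and crosses those with scaling by library totals alone. No interval is drawn for TMEM33, which was chosen for this difference. TMEM33 stays between -2.36 and -2.18 with 1 library left out, whereas the values of RTN1, RTN3, RTN4, REEP5, ATL1 and CKAP4 lie on both sides of 0.

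Among the reticulons, which form the main tubule-curving family, levels overlapped between the groups. RTN4 (chromosome 2, 54972187 to 55112621), which encodes Nogo and is also known as an inhibitor of axon growth, had 174.3, 182.0 and 170.1 normalised CPM in the DMSO libraries A to C and 150.2, 148.0 and 207.5 in the SGC707 libraries A to C. SGC707 A and B lay below all DMSO libraries and SGC707 C above them. The log2 fold change was -0.06 (interval -0.44 to 0.33 at 95%, adjusted p = 0.915 in edgeR), and 0.59 with library totals alone.

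RTN1 (chromosome 14, 59595976 to 59870966), a reticulon of neurons and neuroendocrine cells, had 90.4, 75.8 and 127.4 normalised CPM with DMSO and 90.8, 91.9 and 119.1 with SGC707. Its SGC707 libraries lay within the range of the DMSO libraries. The log2 fold change was 0.04 (interval -0.47 to 0.55 at 95%, adjusted p = 0.958 in edgeR), and leaving out 1 library moved it from -0.12 without DMSO B to 0.27 without DMSO C.

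RTN3 (chromosome 11, 63681446 to 63759891), which is also known as a receptor for the autophagy of ER tubules and as a binding partner of the beta-secretase BACE1, varied most among SGC707 libraries. It had 96.6, 130.8 and 153.8 normalised CPM with DMSO and 129.2, 76.3 and 183.5 with SGC707. The highest SGC707 library stood 2.40 times above the lowest, a wider spread than in any other of the 10 genes. The log2 fold change of 0.03 (interval -0.70 to 0.76 at 95%, adjusted p = 0.979 in edgeR) became -0.31 without SGC707 C and 0.30 without SGC707 B. GENCODE lists 1 pseudogene of RTN3, and whether its reads entered the count was not tested.

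The other tubule-curving genes were REEP5 and ARL6IP1. REEP5 (chromosome 5, 112876379 to 112922539), the human relative of yeast Yop1, had 60.7, 63.8 and 68.4 normalised CPM with DMSO and 49.5, 55.5 and 77.3 with SGC707. SGC707 A and B again lay below the DMSO libraries and SGC707 C above. Its log2 fold change was -0.08 (interval -0.53 to 0.36 at 95%, adjusted p = 0.894 in edgeR), and -0.30 without SGC707 C.

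ARL6IP1 (chromosome 16, 18791667 to 18801678), which encodes a reticulon-like hairpin protein, had the largest positive difference of the 9. It had 144.9, 137.9 and 214.7 normalised CPM with DMSO and 254.0, 204.9 and 271.8 with SGC707. The groups overlapped because DMSO C lay above SGC707 B. The means were 165.8 ± 42.5 and 243.6 ± 34.7 (SD, n = 3), or a fitted log2 fold change of 0.55 (SE 0.21, interval 0.07 to 1.03 at 95%) that did not pass in edgeR (adjusted p = 0.330, unadjusted p = 0.0289). Leaving out 1 library moved it from 0.44 without DMSO B to 0.78 without DMSO C, where the edgeR adjusted p was 0.172. GENCODE lists 3 pseudogenes of ARL6IP1, and its exons overlap those of AC138811.2 on the same strand, which had 25 counts in SGC707 A, 15 in SGC707 C and 0 in the other 4 libraries, so its count is uncertain.

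Of the 3 atlastins, ATL3 was separated between the groups. ATL3 (chromosome 11, 63624087 to 63671921), an atlastin of most tissues that also serves as a receptor for ER autophagy, had 22.9, 22.1 and 23.9 normalised CPM with DMSO and 29.1, 30.4 and 29.3 with SGC707. Every SGC707 library lay above every DMSO library, as in 10.8% of all tested genes, and the replicates of each group were close together. The means were 23.0 ± 0.93 and 29.6 ± 0.73 (SD, n = 3), a 1.29-fold difference. The log2 fold change of 0.37 (SE 0.15, interval 0.01 to 0.72 at 95%) did not pass in edgeR (adjusted p = 0.377, unadjusted p = 0.0432). Leaving out 1 library kept it between 0.34 and 0.39. After a correction for GC content and transcript length with SGC707 C left out it was 0.54 and passed (edgeR adjusted p = 0.0417), as did 7.55% of all genes in that fit.

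ATL3 and RTN3 are neighbours on chromosome 11 that are transcribed away from each other, with 9.52 kb between them. ATL3 was steady within each group, whereas RTN3 differed 2.40-fold among SGC707 libraries and 1.59-fold among DMSO libraries.

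ATL1 (chromosome 14, 50532509 to 50633068), the atlastin most abundant in neurons, had 11.6, 17.3 and 13.0 normalised CPM with DMSO and 13.1, 11.8 and 14.4 with SGC707. The ranges overlapped, and DMSO B was the highest of the 6. Its log2 fold change was -0.09 (interval -0.60 to 0.41 at 95%, adjusted p = 0.894 in edgeR), and 0.09 without DMSO B.

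ATL2 (chromosome 2, 38294880 to 38377285), a broadly expressed atlastin, owed its higher mean to one library. It had 37.9, 35.6 and 39.7 normalised CPM with DMSO and 39.4, 38.6 and 66.6 with SGC707. SGC707 A and B lay within the DMSO range, and SGC707 C was 1.72 times SGC707 B. The log2 fold change of 0.35 (interval -0.19 to 0.89 at 95%, adjusted p = 0.565 in edgeR) was 0.04 without SGC707 C.

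CKAP4 (chromosome 12, 106237877 to 106304279), the sheet protein among the 10, had 46.6, 49.2 and 45.1 normalised CPM with DMSO and 49.3, 52.6 and 38.6 with SGC707. SGC707 C was the lowest and SGC707 B the highest of the 6. The log2 fold change was -0.0041 (interval -0.39 to 0.38 at 95%, adjusted p = 0.995 in edgeR), and 0.11 without SGC707 C. Exons of CKAP4, ATL1 and REEP5 overlap those of counted genes on the opposite strand (TCP11L2 for CKAP4, MAP4K5 and SAV1 for ATL1, SRP19 for REEP5), and the sources used here do not state the strand setting of the counting. No gene of the annotation overlaps TMEM33.

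GC content varied among the 10 genes, and most of them stood higher in SGC707 C than in SGC707 A and B. The transcripts of TMEM33 (36.5% GC), ATL2 (38.5%) and ATL3 (40.1%) were the poorest in GC, those of ARL6IP1, ATL1, REEP5, RTN3 and RTN4 held 41.3% to 44.4%, and those of RTN1 and CKAP4 held 54.3% and 55.9%. In log2 normalised CPM, SGC707 C exceeded the mean of SGC707 A and B by 0.88 in RTN3, 0.77 in ATL2, 0.56 in REEP5, 0.48 in RTN4, 0.38 in RTN1, 0.25 in ARL6IP1 and 0.21 in ATL1. It differed by -0.02 in ATL3, -0.35 in TMEM33 and -0.40 in CKAP4. The 1085 other genes within 2 percentage points of the GC content of TMEM33 had a median of 0.53 on this scale, and 3.50% of them were lower than TMEM33. TMEM33 was lowest in SGC707 C, and it was chosen for its fall in these same libraries. The part of the GC trend in its level was not tested. With the correction for GC content and length its log2 fold change was -2.23, and -1.98 with SGC707 C also left out. The 9 others had a median of 0.03 after the correction, with ARL6IP1 at 0.49, ATL3 at 0.39 and ATL2 at 0.25, and 0 of 9 passed in edgeR. Of the 9, 2 had an unadjusted p under 0.05, as did 24% of all genes in that fit.

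**Figure D4:**
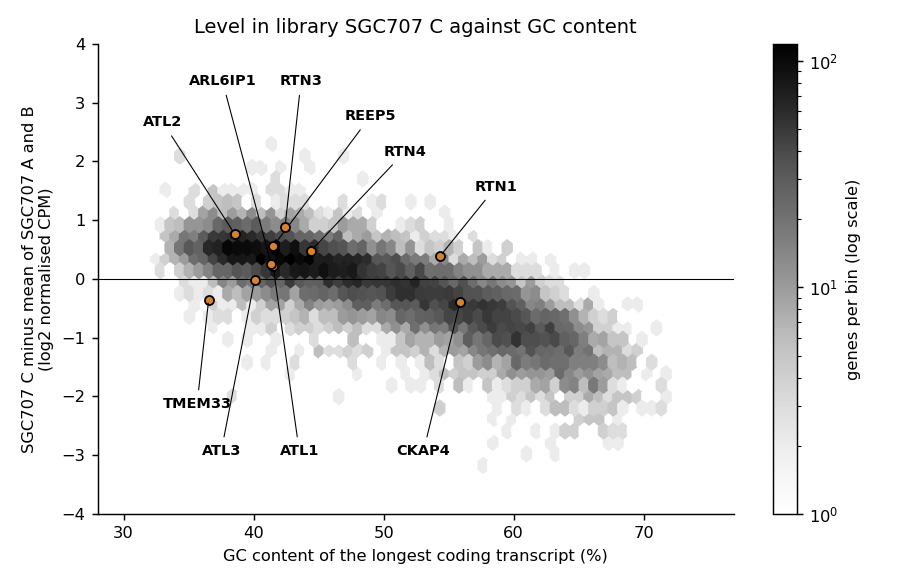
GC content of the longest coding transcript (horizontal axis) against the level in SGC707 C minus the mean of SGC707 A and B (vertical axis, log2 normalised CPM). Grey bins count the 12098 tested nuclear genes, of which 19 lie outside the plotted range, and orange points are the 10 genes. TMEM33 lies at -0.35, below most genes of its GC content, while ATL2 and RTN3 lie at 0.77 and 0.88.

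Per kilobase of the longest coding transcript, the 10 genes spanned a wide range of levels with DMSO. ARL6IP1 was the most abundant at 68.8 ± 17.6 normalised CPM per kb (SD, n = 3), followed by RTN4 at 36.6 ± 1.27, RTN1 at 28.5 ± 7.75, RTN3 at 25.7 ± 5.83 and REEP5 at 19.3 ± 1.17. TMEM33 came next at 16.9 ± 2.08, ahead of CKAP4 at 15.2 ± 0.66, ATL2 at 13.2 ± 0.72, ATL1 at 4.90 ± 1.04 and ATL3 at 3.22 ± 0.13. Neighbours in this order overlapped between libraries from RTN4 down to CKAP4, whereas ARL6IP1 lay above RTN4, CKAP4 above ATL2, ATL2 above ATL1 and ATL1 above ATL3 in every DMSO library. With SGC707 TMEM33 was the last of the 10 at 3.47 ± 0.47 normalised CPM per kb, and its highest library (3.76) lay below the lowest of ATL3 (4.07). The first 5 genes kept their order with SGC707, from ARL6IP1 at 101.1 ± 14.4 to REEP5 at 18.3 ± 4.40. ATL2 came next at 16.8 ± 5.55, then CKAP4 at 15.1 ± 2.37, ATL1 at 4.59 ± 0.47 and ATL3 at 4.15 ± 0.10. The longest transcript need not be the one these cells use, so levels per kb are approximate.

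Other genes of ER shape and function were read from lists chosen by function. None of the 46 tested genes of these 6 lists passed in edgeR or DESeq2 on all 6 libraries, and in edgeR the unadjusted p was under 0.05 for 1 higher gene (HSPA5) and 1 lower gene (CCPG1). With library totals alone 10 of them passed, all higher, beside the 21.1% of all genes that were higher with that scaling. For comparison, 6440 of the 12196 tested genes had positive and 5756 negative log2 fold changes. Of 10 other tubule and junction genes, 8 had log2 fold changes above 0, and the median over the 10 was 0.24 (the lowest adjusted p in edgeR was 0.397, and 0 of 10 had an unadjusted p under 0.05). Without SGC707 C 6 of the 10 were positive with a median of 0.13, and without DMSO B 6 were positive. The reticulon gene RTN2 stood at 18.0 ± 1.69 and 22.3 ± 6.54 normalised CPM (SD, n = 3, log2 fold change 0.31), REEP2 at 17.9 ± 4.23 and 21.1 ± 4.72 (0.24), REEP3 at 62.7 ± 9.14 and 64.3 ± 7.81 (0.03) and REEP4 at 8.44 ± 3.18 and 8.58 ± 3.93 (0.03). LNPK, which encodes the junction protein lunapark, stood at 46.0 ± 3.35 and 40.4 ± 8.56 (-0.19). SPAST, which encodes the microtubule-severing enzyme spastin, had 25.8 ± 3.42 normalised CPM with DMSO and 22.2, 26.0 and 95.9 in the SGC707 libraries A to C. Its log2 fold change of 0.89 (edgeR adjusted p = 0.514) was -0.10 without SGC707 C, so that library carried the difference.

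Of 6 sheet and translocon genes, 3 had positive and 3 negative values (median -0.01, lowest edgeR adjusted p = 0.420). With 1 library left out the median lay on both sides of 0, from -0.08 without DMSO A to 0.08 without SGC707 A. RRBP1, the ribosome-binding protein of sheets, stood at 16.5 ± 3.05 and 16.6 ± 7.61 normalised CPM (SD, n = 3, log2 fold change 0.01). KTN1, which encodes the kinesin-binding protein kinectin, stood at 383.2 ± 17.8 and 351.2 ± 142.1 (-0.13). Without SGC707 C the KTN1 value was -0.51 and passed (edgeR adjusted p = 0.0336), as did 9.26% of all genes.

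Of 7 receptors for ER autophagy, 3 had positive and 4 negative values (median -0.15, lowest edgeR adjusted p = 0.366), and the median was -0.06 without DMSO B and -0.04 without SGC707 A. CCPG1, a receptor induced by ER stress in other settings, stood at 20.3 ± 4.07 and 13.8 ± 2.24 normalised CPM (SD, n = 3, log2 fold change -0.56, edgeR adjusted p = 0.366). SEC62 stood at 158.1 ± 10.2 and 142.1 ± 27.0 (-0.15), and RETREG1, the receptor for sheets also called FAM134B, at 5.99 ± 0.53 and 6.47 ± 1.76 (0.11). The receptor gene RETREG2 stood at 25.2 ± 2.61 and 32.1 ± 11.4 (0.35, edgeR adjusted p = 0.635). Without SGC707 C its log2 fold change, for which it is named, was 0.61 and passed (edgeR adjusted p = 0.0414), as did 9.26% of all genes. It passed in no other setting.

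Of 10 genes of ER dynamics and contact sites, 8 were positive (median 0.13, lowest edgeR adjusted p = 0.594), and the median was 0.02 without SGC707 C and 0.08 without DMSO B. The small GTPase genes RAB10 and RAB18 stood at 158.4 ± 7.26 and 171.7 ± 25.9 normalised CPM (SD, n = 3, log2 fold change 0.12) and at 30.1 ± 3.22 and 29.8 ± 8.47 (-0.02). The contact-site tethers VAPA and VAPB stood at 77.4 ± 7.56 and 84.6 ± 10.3 (0.13) and at 46.2 ± 17.7 and 55.5 ± 18.4 (0.27).

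Genes of the ER stress sensors, their targets and proteins that bind TMEM33 had log2 fold changes between -0.09 and 0.43, and none passed. EIF2AK3, which encodes PERK, stood at 18.7 ± 0.44 and 17.6 ± 1.89 normalised CPM (SD, n = 3), or a fitted log2 fold change of -0.09 (interval -0.49 to 0.31 at 95%, adjusted p = 0.872 in edgeR). ERN1, which encodes the sensor IRE1, stood at 13.7 ± 3.19 and 14.2 ± 0.98 (0.05), and PKD2, which encodes the cation channel polycystin-2, at 60.3 ± 1.20 and 59.2 ± 12.2 (-0.03). HSPA5, which encodes the ER chaperone BiP, had its SGC707 libraries above its DMSO libraries, as did 10.8% of all tested genes. It stood at 242.2 ± 35.4 and 325.4 ± 28.1 (log2 fold change 0.43, interval 0.07 to 0.78 at 95%). It did not pass in edgeR (adjusted p = 0.317, unadjusted p = 0.0251). The 8 genes of this list had 6 positive values and a median of 0.09, which was 0.03 without DMSO B, 0.06 without SGC707 B and 0.20 without DMSO C.

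Nogo, the product of RTN4, is bound at the cell surface by the Nogo receptor, which signals through co-receptors. Of 6 listed genes 5 were tested, and all 5 had negative values (median -0.60, lowest edgeR adjusted p = 0.467). With library totals alone 3 of the 5 were positive. After the GC and length correction, and without DMSO B, DMSO C or SGC707 B, 1 of the 5 was positive. The median ranged from -0.85 without SGC707 A to -0.43 without DMSO A. A stricter filter on low counts kept only 2 of the 5. RTN4R, which encodes the Nogo receptor, stood at 2.55 ± 0.62 and 2.27 ± 0.53 normalised CPM (SD, n = 3, log2 fold change -0.16). LINGO1, which encodes its co-receptor, stood at 19.2 ± 11.1 and 10.5 ± 3.27 (-0.86, edgeR adjusted p = 0.505), and its DMSO libraries were far apart at 27.4, 23.7 and 6.57.

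**Figure D5:**
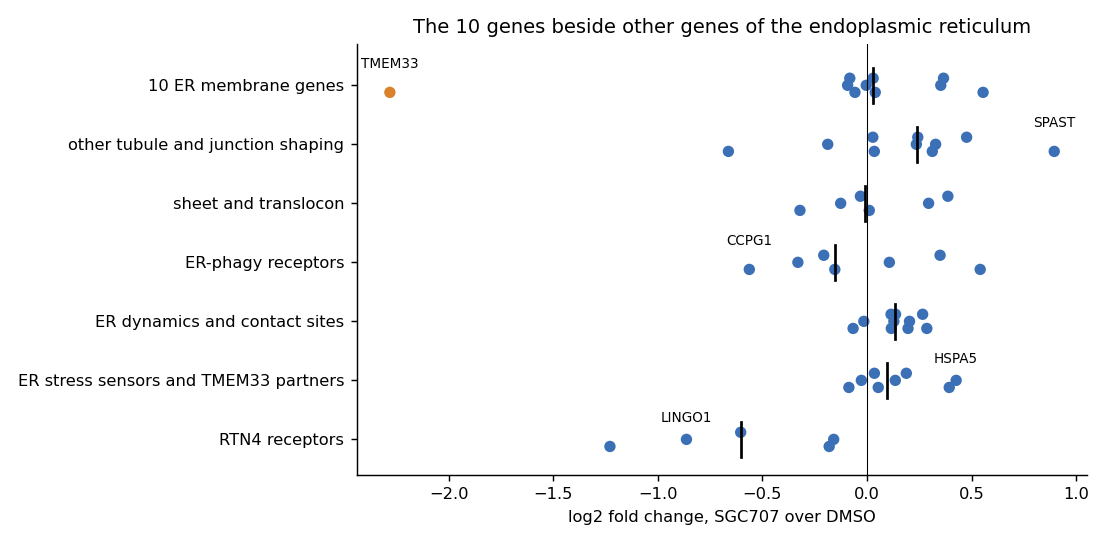
Log2 fold change (SGC707 over DMSO) of the tested genes of each list, 1 point per gene, with the list's median as a vertical bar (TMEM33, in orange, is left out of the median of its list). Vertical scatter within a row has no meaning. Apart from TMEM33 at -2.28, the genes of these lists lie between -1.23 and 0.89.

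The genes whose levels went most like that of TMEM33 over the 6 libraries were DEGS1, TPPP, TENT4B, SEMA6D and PI4KB, among 10155 genes with a mean of at least 5 normalised CPM. Their Pearson correlations with TMEM33 in log2 normalised CPM were 0.990, 0.988, 0.986, 0.985 and 0.979, a description over 6 libraries that share the group difference. SEMA6D, a semaphorin gene, had a difference of like size, with 20.99 ± 1.39 normalised CPM in the DMSO group and 4.60 ± 1.27 in the SGC707 group (SD, n = 3, log2 fold change -2.18). DEGS1, which encodes a ceramide-forming desaturase of the ER, had 58.9 ± 6.86 and 31.4 ± 2.91 (-0.91), and PI4KB, which encodes a lipid kinase of the Golgi, 44.1 ± 2.20 and 24.5 ± 2.32 (-0.85). TPPP (-0.71) and TENT4B (-0.66) differed less. With library totals alone the values were -1.48 for SEMA6D, -0.24 for DEGS1, -0.16 for PI4KB, -0.04 for TPPP and 0.01 for TENT4B. Of the 9 ER membrane genes, ATL3 (-0.950), ARL6IP1 (-0.741) and ATL2 (-0.576) had negative correlations with TMEM33, and the other 6 lay between -0.10 and 0.18.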

How the data were processed

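The 10 genes, the lists and the tests were chosen with earlier results of these data known. Per the labels' protocols, mRNA was isolated from DNase-treated total RNA, and libraries were sequenced as paired reads of 150 bases. The authors deposited whole-number read counts per gene symbol, not scaled between libraries. HISAT2, StringTie and GRCh38 are named per the submitters' processing notes. The sources used here state no versions, annotation or strand setting.

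Counts of SGC707 and DMSO (3 libraries each) were compared in R 4.3.3 with edgeR 4.0.16 (filterByExpr, TMM, robust glmQLFit, glmQLFTest, no covariate). P-values were Benjamini-Hochberg adjusted over 12196 genes, with a threshold of 0.05. SEs are the log2 fold change over the square root of F. No 2 replicates agreed within sampling noise (chi-square at least 11.9 per degree of freedom). GENCODE 29 on GRCh38 gave coordinates, GC content and length, with 19294 of 19610 symbols matched directly and 289 by synonym. The GC and length correction used lowess curves (span 0.3) as offsets, without mitochondrially encoded genes. DESeq2 1.42.0, limma 3.58.1 (voom) and other alternatives are given at the end. The procedure was tested on simulated data. Likeness to TMEM33 used log2 CPM with a prior count of 2.

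Named genes are the 10, list genes marked by function without regard to their values, any list gene past the threshold in edgeR on all libraries (there was none), and the 5 genes most correlated with TMEM33. AC138811.2 and the other overlapping genes were named from the annotation, and GATA3 and RETREG2 after their values were seen. One adrenergic marker is not reported here and is left out of the summed levels.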

Additional observations from a re-analysis of the deposited data

How the results depend on the processing

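Of the 17 alternatives, 15 gave 0 of the 9 genes past the threshold in either direction, as on all libraries. Library totals alone gave 4 higher (ARL6IP1, ATL2, ATL3 and RTN4), and the GC and length correction with SGC707 C left out gave 1 higher (ATL3). TMEM33 stayed negative in all 17, between -2.36 (without DMSO B) and -1.61 (library totals), with -1.98 after the correction with SGC707 C left out. Over all tested genes, where 1 was higher and 2 lower, the counts of higher and lower genes were 47 and 241 with DESeq2, 8 and 52 after the GC and length correction, 288 and 640 after it with SGC707 C left out, 2574 and 31 with library totals, and 5 lower with no filter. They were 0 higher with limma-voom, 0 and 0 with the replicate block (1534 genes had an unadjusted p under 0.05 by edgeR), and 1 lower with the correction and replicate block. Leaving out 1 library gave 0 to 462 higher and 0 to 685 lower, and both maxima came without SGC707 C. Leaving out SGC707 B, DMSO B or DMSO A gave 0 and 0, leaving out SGC707 A gave 5 and 4, and leaving out DMSO C gave 0 and 5. The cause was not tested.

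The data did not show a pairing of the libraries by replicate letter, but these values cannot exclude it. Same-letter deviations correlated at 0.08, -0.02 and 0.0998 across genes. Libraries A and B correlated better with another letter, and C better with its own. The block changed no call among the 9 genes.

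These log2 fold changes changed sign, all of them in genes that did not pass in edgeR on all libraries. With library totals they were RTN4 0.59, REEP5 0.55, ATL1 0.59, CKAP4 0.69, LNPK 0.46, KTN1 0.49, SEC62 0.50, CCPG1 0.075, RAB18 0.63, EIF2AK3 0.57, PKD2 0.61, RTN4R 0.56, HAND2 0.44, DBH 0.34 and TENT4B 0.012. RRBP1 was -0.0048 with RLE, -0.0060 with DESeq2, -0.081 with limma-voom and -0.085 with the replicate block. RTN3 was -0.041 and -0.029 with the last 2, and REEP4 -0.012 and -0.036. After the GC and length correction RTN3 was -0.0078, CKAP4 0.025, REEP4 -0.0025 and RTN4R 0.011. With the correction and replicate block RTN3 was -0.040, CKAP4 0.024 and RTN4R 0.049. After it with SGC707 C left out RTN1 was -0.18, RTN3 -0.18, CKAP4 0.0085 and RETREG1 -0.026. With 1 library left out the ranges were RTN1 -0.12 to 0.27, RTN3 -0.31 to 0.30, RTN4 -0.24 to 0.029, REEP5 -0.30 to 0.048, ATL1 -0.21 to 0.087, CKAP4 -0.095 to 0.11, REEP3 -0.065 to 0.15, REEP4 -0.21 to 0.36, RRBP1 -0.25 to 0.34, KTN1 -0.51 to 0.068, RETREG1 -0.14 to 0.22, SPAST -0.10 to 1.24, RAB10 -0.015 to 0.20, RAB18 -0.28 to 0.11, ERN1 -0.055 to 0.26, PKD2 -0.21 to 0.074 and RTN4R -0.33 to 0.038. Precision is limited by 3 libraries a group and, for TH at 0 counts, by depth.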

Other observations

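SPAST and VAPB had values that stood apart without following the groups. SPAST had 95.9 normalised CPM in SGC707 C and 21.9 to 28.4 in the other 5 libraries. VAPB, an ER contact-site tether, had 38.4, 33.6 and 66.4 normalised CPM in the DMSO libraries A to C and 34.6, 69.2 and 62.8 in the SGC707 libraries A to C, so 3 libraries lay at 33.6 to 38.4 and 3 at 62.8 to 69.2, with both groups in each range. These patterns were seen in the data and not tested. CALCOCO1 and SEC61A1 were other genes of the lists with lower values, at log2 fold changes of -0.33 and -0.32 (edgeR adjusted p = 0.491 and 0.420). RTN4RL2 (-1.23), REEP6 (-0.66) and NGFR (-0.60) stood lower still (edgeR adjusted p = 0.474, 0.492 and 0.467). RETREG3 (0.54) and ZFYVE27 (0.48) had higher values (edgeR adjusted p = 0.458 and 0.397). These genes were chosen after their values were seen, and none of them passed on all libraries.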
